A study of Mus musculus with 4 samples.

Results

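XBP1s is the transcription factor made when the endoplasmic reticulum (ER) sensor IRE1 splices Xbp1 mRNA, and it is known for switching on genes of ER protein import, folding, degradation and secretion. It binds short elements with an ACGT core, and, with other factors, the ER stress response elements. First introns lie next to gene starts, and in many genes they hold regulatory DNA. The intervals described here are XBP1s peaks whose centre lies inside an intron, outside a CpG island, within 5000 bp of a transcription start site (TSS). CpG islands are GC-rich stretches that accompany most constitutive promoters. The members were chosen by 3 columns of the deposited peak table, the annotation, the detailed annotation and the distance to the TSS, and number 330 of 4890 peaks, out of 1037 peaks in introns.

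Chromatin from mouse natural killer (NK) cells was precipitated with an antibody against XBP1s in 2 libraries, and 2 input libraries were made from chromatin without antibody. The cells came from spleens of mice that the design text names Il15TgXbp1f/f, which denotes an IL-15 transgene and a floxed Xbp1 allele. The strain label is C57BL/6, and neither a Cre, the promoter of the transgene nor an age is given in the sources used here. All 4 libraries are from cells given IL-15, the cytokine that sustains NK cells, at 50 ng/ml for 1 h. The peaks are 1 list without a value for any library, so no interval has a replicate error and the depth is unknown. Its score column is 0 throughout, and the width of an interval is the quantity available. Width is not a measure of occupancy, and neighbouring intervals are never closer than 200 bp in the list. No test was run, because regions of 1 list are not replicates. Intervals on shares and medians are exact 95% binomial intervals and cover counting error only.

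The sequences of 4 start regions show what lies under intervals that reach back over the TSS. Each run holds bases before the RefSeq start that lie under the interval, 5′ to 3′ along the gene, from GRCm38.p6, up to the 250 bases that the RefSeq table gives. The intervals of Herpud1, Ssr3 and Sec61g reach 498, 406 and 423 bp before the TSS, so their outer bases are neither printed nor searched. Capitals mark ACGT, CCACG and CCAAT on either strand, including ATTGG and CGTGG as their opposite strands, and the ER stress response element II, which is ATTGG and CCACG separated by 1 base. Herpud1, an ER membrane protein of ER-associated degradation, is shown because its element II lies under the interval (chr8:94386179-94386428, plus strand). Ssr3, the gamma subunit of the translocon-associated TRAP complex, is shown for its ACGT core (chr3:65392554-65392803, minus strand). Sec61g, a subunit of the SEC61 channel, has neither ACGT nor CCACG in its run (chr11:16508485-16508734, minus strand). Bhlha15, which encodes the secretory cell factor MIST1, was singled out after its values were seen, and its run is the 101 bases under a 469 bp interval (chr5:144190185-144190285, plus strand).
Herpud1: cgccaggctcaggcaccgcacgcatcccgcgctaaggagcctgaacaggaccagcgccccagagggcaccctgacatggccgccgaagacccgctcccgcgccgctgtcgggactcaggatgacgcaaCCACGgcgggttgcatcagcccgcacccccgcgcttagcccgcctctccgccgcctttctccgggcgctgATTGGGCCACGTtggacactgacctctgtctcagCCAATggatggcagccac
Ssr3: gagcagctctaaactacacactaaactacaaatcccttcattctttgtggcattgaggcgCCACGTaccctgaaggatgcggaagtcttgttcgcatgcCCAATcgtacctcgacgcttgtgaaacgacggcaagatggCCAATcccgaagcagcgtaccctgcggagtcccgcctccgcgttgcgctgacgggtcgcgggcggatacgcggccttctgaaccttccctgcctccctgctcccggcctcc
Sec61g: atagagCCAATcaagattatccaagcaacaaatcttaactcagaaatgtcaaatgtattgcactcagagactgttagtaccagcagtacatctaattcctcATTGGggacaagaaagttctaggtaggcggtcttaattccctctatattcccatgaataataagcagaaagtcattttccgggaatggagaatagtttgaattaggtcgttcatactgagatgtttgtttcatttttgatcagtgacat
Bhlha15: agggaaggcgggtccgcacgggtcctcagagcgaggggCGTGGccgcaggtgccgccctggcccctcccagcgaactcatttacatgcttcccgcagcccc

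The element II of Herpud1 runs from 52 to 42 bases before the start, and its ACGT lies from 44 to 41 bases before it. A second CCACG of Herpud1 lies from 122 to 118 bases before the start. In Ssr3, the ACGT and CCACG matches overlap between 190 and 185 bases before the start, and CCAAT occurs at 151 to 147 and at 111 to 107 bases. Sec61g has CCAAT at 244 to 240 bases, and its opposite strand form at 149 to 145 bases. Bhlha15 has CCACG on the opposite strand at 63 to 59 bases. A match is a description of these letters and not a bound site.

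The intervals lay mainly downstream of the TSS and mainly in the first intron, which follows in part from the rule. An intron of a gene lies downstream of that gene's start, and the rule keeps centres close to a start. The contrasts below with far peaks and between introns share this limit, because the rule uses the distance. Of the 330, 312 were centred downstream and 18 upstream, and the median centre was 957.5 bp downstream (interquartile range 474.75 to 1873.5 bp). Intron 1 held 269 of them (81.5%, 95% interval 76.9 to 85.6), intron 2 held 38, intron 3 held 8, intron 4 held 5 and intron 5 held 4. The other 6 lay in introns 6, 7, 9, 10, 13 and 28, with 1 in each. The intron 1 share was 348 of 362 (96.1%, 93.6 to 97.9) for near intron peaks in CpG islands and 101 of 328 (30.8%, 25.8 to 36.1) for non-CpG intron peaks farther than 5000 bp. Intervals in later introns were centred farther from the TSS, at a median of 1549 bp, against 834 bp for intron 1, and were 300 bp wide in the median (95% interval 257 to 349), against 341 bp (316 to 365).

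**Figure D1:**
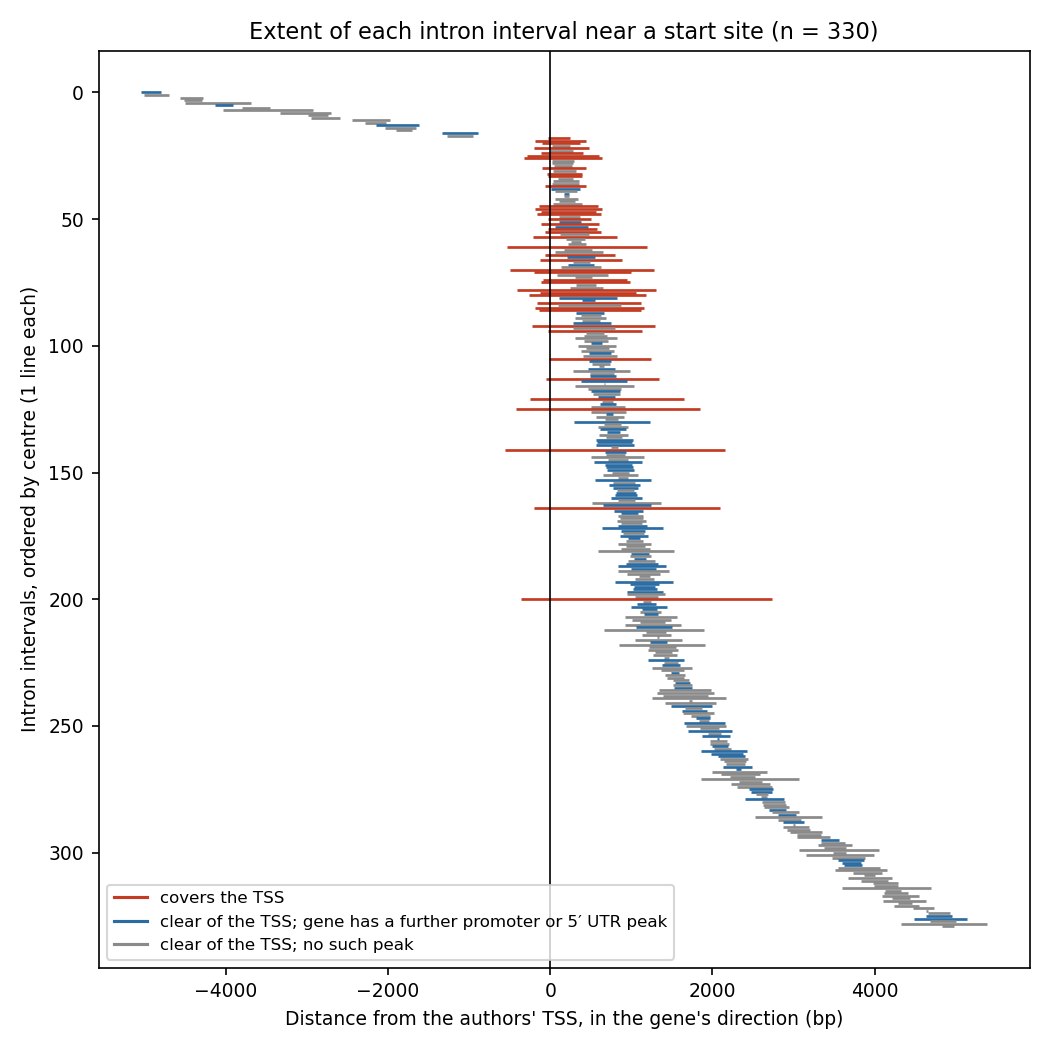
Extent of the 330 intervals relative to the authors' TSS at 0, along the gene's direction in bp, 1 line per interval, ordered by centre. The 42 intervals in red cover the TSS, the 95 in blue belong to genes with a further promoter or 5′ UTR peak, and the 18 at the top are centred upstream.

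Widths of the 330 ranged from 19 to 3097 bp, with a median of 332 bp (95% interval 309 to 353). The median was 427.5 bp (394 to 489) for the 362 near intron peaks in CpG islands, 299 bp (283 to 317) for the 328 far intron peaks and 404 bp (396 to 414) for the 2571 promoter peaks. Intervals of at least 1000 bp numbered 28 of 330 (8.48%, 5.71 to 12.0), against 6.71% of all peaks, a share near this background. They made up 39 of 362 near CpG intron peaks (10.8%, 7.77 to 14.4), 5 of 328 far intron peaks (1.52%, 0.497 to 3.52) and 196 of 2571 promoter peaks (7.62%, 6.63 to 8.72). At the other end, 44 of 330 were under 200 bp (13.3%, 9.86 to 17.5), against 9.51% of all peaks.

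**Figure D2:**
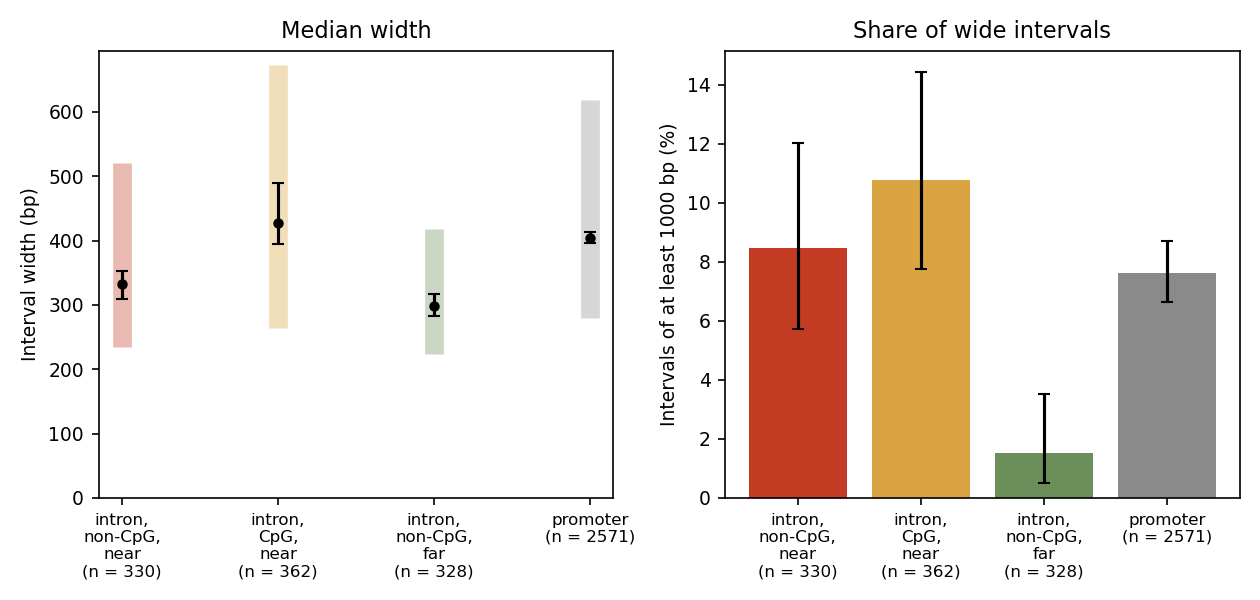
Left, median width in bp (point) with its 95% interval (bar) and the interquartile range (shaded), for the near non-CpG intron intervals and for 3 other classes of peaks. Right, share of intervals of at least 1000 bp in percent with exact 95% intervals. The 330 intervals have a lower median than promoter peaks (332 against 404 bp) and a share of wide intervals of 8.48% against 7.62%.

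Most of the wide intervals covered the TSS and extended into the gene. In 42 of 330 the interval covered the TSS (12.7%, 95% interval 9.33 to 16.8), against 50.9% of all peaks and 140 of 362 near CpG intron peaks (38.7%, 33.6 to 43.9). The annotation by centre keeps most peaks over a start out of the intron class, so the gap to all peaks follows in part from the rule. The 42 had a median width of 1028 bp (95% interval 720 to 1253), and the other 288 had 308.5 bp (286 to 329). The centres lie off the TSS, so only an interval wide enough for its distance can cover it. This width difference, and the share of wide intervals over a TSS, therefore follow in part from the definition. Of the 28 intervals of at least 1000 bp, 22 covered the TSS. These 22 reached a median of 198 bp upstream and 1190 bp downstream of it, whereas the 190 promoter peaks of that size over a TSS reached 675 bp upstream and 599.5 bp downstream. All 22 extended farther downstream than upstream, which the position of the centre fixes, as did 78 of the 190 promoter peaks.

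The 20 widest intervals were led by Trabd, which encodes a TraB domain protein, at 3097 bp in intron 1 of 9 (chromosome 15, 89075704 to 89078800). It began 360 bp before the TSS and ended 2736 bp after it, and it also holds an end of the RefSeq gene 1810021B22Rik. The 2 next in width belonged to Sec11c, which encodes the signal peptidase enzyme SEC11C, at 2705 bp in intron 1 of 5 (chromosome 18, 65800024 to 65802728) and Vps37c, a subunit of the ESCRT-I sorting complex, at 2293 bp in intron 1 of 4 (chromosome 19, 10688538 to 10690830). Both covered the TSS, Sec11c from 554 bp before to 2150 bp after it and Vps37c from 197 bp before to 2095 bp after it. Ends of other RefSeq genes lay in 10 of the 330 intervals. Of the 20 widest, those of Slc38a10, Snhg15, Nme1 and Tes hold such an end, as Trabd does. The share over all peaks was not computed.

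Sec61g had 2273 bp in intron 1 of 3 (chromosome 11, 16506635 to 16508907), from 423 bp before to 1849 bp after the TSS. Spcs3, an accessory subunit of signal peptidase, had 1899 bp in intron 1 of 4 (chromosome 8, 54528352 to 54530250). Herpud1 had 1773 bp in intron 1 of 7 (chromosome 8, 94385931 to 94387703), from 498 bp before to 1274 bp after the TSS. These 3 intervals cover a start and continue for more than 1000 bp into the gene. Slc9a8, which encodes a sodium/hydrogen exchanger, had 1726 bp, and Ssr3 had 1705 bp in intron 1 of 4 (chromosome 3, 65391255 to 65392959). Morrbid, a long noncoding RNA known to restrain the death gene Bcl2l11 in myeloid cells, had 1516 bp in its 1 intron (chromosome 2, 128428057 to 128429572), with its centre 537 bp into the gene.

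The remaining 11 of the 20 measured 1163 to 1447 bp. Among them were the signal recognition particle genes Srp72 (1186 bp) and Srp68 (1163 bp), the cargo lectin gene Lman1 (1351 bp), H13, which encodes signal peptide peptidase (1253 bp), and the transporter gene Slc38a10 (1400 bp). Others were Tbrg1 (1447 bp), the RNA gene Snhg15 (1279 bp), the nucleoside diphosphate kinase gene Nme1 (1253 bp) and Tes (1194 bp). These 9 intervals all covered the TSS. The 2 that did not were AI662270, at 1232 bp in intron 3 of 3, beginning 667.5 bp downstream of the TSS, and 1 of the 3 intervals of Kcnab2, which encodes a potassium channel subunit, at 1213 bp beginning 1857 bp downstream.

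**Figure D3:**
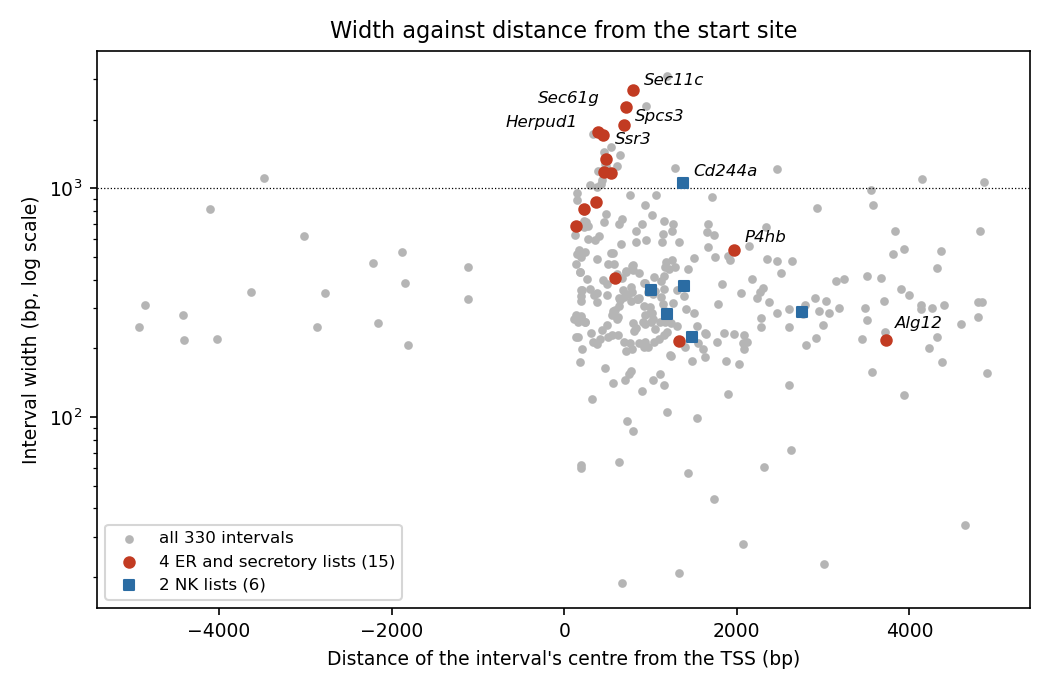
Interval width in bp on a log scale against the distance of its centre from the TSS in bp, for the 330 intervals (grey), those of the 4 ER and secretory lists (red circles) and those of the 2 NK lists (blue squares). The dotted line is 1000 bp. The 8 red points above the line lie within 1000 bp downstream of the TSS, and the 6 blue points lie between 1004 and 2751 bp.

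Gene lists were used to describe which functions these introns belong to. On 17 lists of 572 genes, 33 of the 330 intervals were found (10.0%), against 421 of all 4890 peaks (8.61%). The 4 ER and secretory lists had 15 intervals at 14 genes (4.55% of the 330), against 159 of all peaks (3.25%). Their median width was 1163 bp, against 872 bp over all peaks of these lists and 324 bp over the 315 other intron intervals. Of the 15, 11 covered the TSS and 8 were at least 1000 bp wide, compared with 31 and 20 of the 315 others. The 15 were centred at a median of 548 bp from the TSS, against 957.5 bp for all 330. Intervals over the TSS are wider in part by definition, so the width contrast with the 315 is tied to position. The lists were chosen with earlier results of these data known, and these counts were not tested.

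By role, ER import and glycosylation had 7 of the 15, Sec11c, Sec61g, Spcs3, Ssr3, Srp72, Srp68 and the mannosyltransferase gene Alg12, with a median of 1705 bp. Alg12 stood apart from the other 6, at 217 bp in intron 3 of 9 (chromosome 15, 88815478 to 88815694), 3732 bp from the TSS, and it was named after its values were seen. That gene also had a promoter peak of 1441 bp. Among chaperones, P4hb, which encodes protein disulfide isomerase, had 2 narrow intervals of 215 and 539 bp, 240 and 713 bp beyond the edge of its 2049 bp promoter peak (chromosome 11, 120572266 to 120574314). Herpud1 was the 1 gene of ER-associated degradation.

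ER to Golgi transport had 5 intervals with a median of 817 bp. Beside Lman1 these were Arfgap3, an ARF GTPase-activating protein (870 bp), the SNARE gene Bet1 (817 bp), Copg1 of the COPI coat (688 bp) and the retrieval receptor gene Kdelr1 (405 bp). The first 4 of the 5 covered the TSS, and Kdelr1, centred 584 bp downstream, did not. No interval belonged to the 21 UPR sensors and factors, to sterol and lipid synthesis or to the immunoproteasome and MHC class I list. These lists have 16, 25 and 8 peaks in the whole table. The 330 members are a small part of its 4890 peaks, so these absences are not read as a result about the genes. Xbp1 and Pim2, the 2 genes named in the title of the series, have no such interval. Their start-site peaks are annotated to exon 1, and Xbp1 also has an intergenic peak of 490 bp at a distance of -14471 bp.

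The intervals of the NK lists lay clear of the start and, apart from the 1061 bp interval of Cd244a, measured 224 to 376 bp. The 2 NK lists had 6 intervals at 5 genes (1.82% of the 330, against 1.00% of all peaks), centred 1004 to 2751 bp downstream, with a median width of 325.5 bp, close to the 332 bp of all 330. None covered the TSS, as was the case for 288 of the 330. Cd244a, which encodes the receptor 2B4, had 2 intervals in intron 1 of 8, of 1061 bp (chromosome 1, 171560036 to 171561096) and 290 bp (171561800 to 171562089), 703 bp apart, and no other peak. Srgn, which encodes the granule proteoglycan serglycin, had 376 bp in intron 2 of 3 (chromosome 10, 62506181 to 62506556). The protease inhibitor genes Serpinb6b and Serpinb9 had 361 and 224 bp in intron 1, and Ctsw, which encodes cathepsin W, had 282 bp in intron 2 of 9. Of these 5 genes Serpinb9 alone also had a promoter or 5′ UTR peak, which was 66 bp wide.

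Survival genes had 4 intervals, of 23 to 454 bp. Pim1, a kinase gene of the family of Pim2, had 454 bp in intron 2 of 2 (chromosome 17, 29494138 to 29494591), with its centre 1279 bp after a TSS, and a promoter peak of 423 bp lay 3380 bp away. Mcl1, an anti-apoptotic gene, had 307 bp in intron 1 of 2, 635 bp beyond its 405 bp promoter peak. The pro-apoptotic genes Bak1 and Bbc3 had 212 and 23 bp and no promoter peak. In IL-15 and JAK-STAT signalling, Stat4 had 324 bp, centred 3032 bp downstream in intron 1 of 23, and the adaptor gene Sh2b3 had 280 bp, centred 556 bp downstream.

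Other lists had 1 or 2 intervals each. The glutamine transporter gene Slc1a5 had 351 bp, the translation genes Pabpc1 and Eif2s3x had 281 and 262 bp, and the splicing factor gene Hnrnpf had 318 and 268 bp next to different start sites. Of the markers of other cells that an NK preparation could hold, Lck, a kinase gene of T cells that NK cells also use, had 214 bp, and no B and plasma cell or myeloid marker had an intron interval of this kind. Over the whole table, peaks were assigned to 3 of 15 T cell, 1 of 15 B and plasma cell and 1 of 15 myeloid markers. The NK lists had peaks at 28 of their 85 genes. The share over all genes was not computed and the lists differ in size, so these counts do not measure the purity of the cells.

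The next comparison asked whether the intron intervals accompany another peak at the start of the same gene. For 95 of the 330 the gene also had a promoter or 5′ UTR peak (28.8%, 95% interval 24.0 to 34.0), against 10.6% of all peaks with a further such peak. The share was 52 of 362 for near CpG intron peaks (14.4%, 10.9 to 18.4) and 48 of 328 for far intron peaks (14.6%, 11.0 to 18.9). Promoter peaks take part in the background with their own class, in which 121 of 2571 had a further one (4.71%). None of the 95 was 1000 bp wide or more, none covered the TSS, and their median width was 324 bp, with 392 bp for the nearest start peak of the gene. An interval over the TSS occupies the start itself, and 22 of the 28 wide members cover it. These absences therefore follow in part from position. The intron interval was the wider in 38 pairs and the narrower in 57. The gap between the pair had a median of 804 bp and ranged from 206 to 38045 bp, and it was at most 500 bp in 28 pairs.

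Cmas, which encodes the enzyme that activates sialic acid, had the widest interval among the 95, 938 bp (chromosome 6, 142756980 to 142757917), 206 bp from its 221 bp promoter peak. It was singled out after its values were seen. For 161 of the 330 intervals (48.8%, 43.3 to 54.3) the gene had no other peak in the table, against 74.4% of all peaks. The share was 273 of 362 for near CpG intron peaks (75.4%, 70.6 to 79.8) and 186 of 328 for far intron peaks (56.7%, 51.2 to 62.1).

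These features were also set out by the position of the interval along the gene. Distance enters the definition of covering, and intron 1 is the intron nearest the start, so both trends follow in part from position. An interval over the TSS also takes the place of a start peak, which bears on the further-peak share within 500 bp. In the bins -5000 to -1, 0 to 500, 501 to 1000, 1001 to 2000 and 2001 to 5000 bp there were 18, 72, 79, 84 and 77 intervals. Their median widths in this order were 339.5, 430, 331, 313 and 302 bp. Start sites were covered by 33 of 72 intervals centred within 500 bp downstream (45.8%) and by 8 of 79 in the next bin (10.1%). A further start peak was present for 9 of 72 (12.5%), 31 of 79 (39.2%), 31 of 84 (36.9%) and 20 of 77 (26.0%) in the 4 downstream bins. The share in intron 1 was 95.8%, 92.4%, 76.2% and 66.2% in the same bins.

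**Figure D4:**
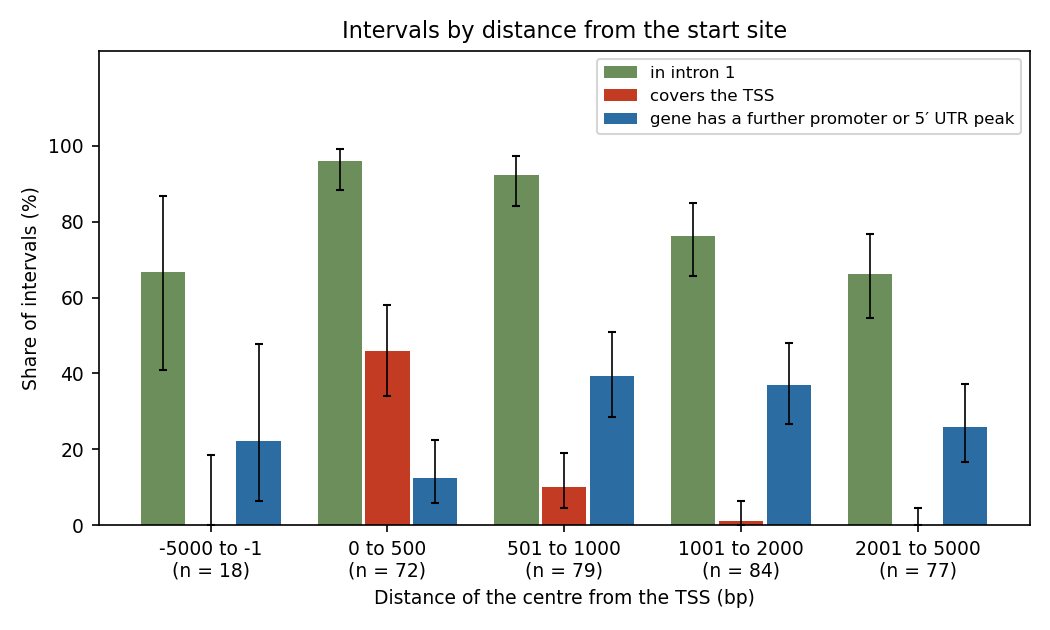
Share of intervals in percent, with exact 95% intervals, by distance of the centre from the TSS in bp: in intron 1 (green), covering the TSS (red) and with a further promoter or 5′ UTR peak of the gene (blue). Covering intervals make up 45.8% within 500 bp downstream, and further start peaks 39.2% at 501 to 1000 bp. Covering depends on the distance by definition.

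Several genes carried more than 1 of the intervals. The 330 were assigned to 306 genes, of which 14 had 2 and 5 had 3. Gaps between neighbours of 1 gene ranged from 215 to 16888 bp over 24 gaps, with a median of 646.5 bp. Kcnab2 had intervals of 1016, 202 and 1213 bp in intron 1 of 16 (chromosome 4, 152445786 to 152448984), with gaps of 409 and 359 bp, and the first of them covered the TSS. Txk, a TEC family kinase gene of T and NK cells, had 444, 333 and 235 bp in intron 1 of 14 (chromosome 5, 72748946 to 72751779), and its 325 bp 5′ UTR peak belongs to another start site. Smim3 and the noncoding gene Gm12596 had 3 each, of 44 to 229 bp and 34 to 630 bp. Ikzf1, which encodes the lymphoid factor Ikaros, was singled out after its values were seen and had 1040 and 628 bp, 597 bp apart.

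For 318 of the 330 (96.4%, 95% interval 93.7 to 98.1) the intron that holds the centre belonged to the gene with the nearest TSS. This share was 358 of 362 for near CpG intron peaks and 220 of 328 (67.1%, 61.7 to 72.1) for far intron peaks. Near and far peaks are split by the distance to the nearest TSS, so this contrast follows in part from the cut. In the other 12 the nearest TSS was that of a gene inside or beside the host gene. An example is Bhlhe40, a transcription factor gene, with 530 bp in intron 1 of 6 of 0610040F04Rik. Others, picked after their values were seen, were the microRNA genes Mir6945 in Pdlim7, Mir7231 in Foxj2, Mir7235 in Tbkbp1 and Mir3547 in Baiap3.

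Of the 18 intervals centred upstream, the widest was in Tnfrsf9, which encodes the costimulatory receptor 4-1BB, with 1107 bp at a distance of -3477 bp from the TSS, in intron 1 of 6 of another transcript of that gene (chromosome 4, 150923969 to 150925075). The next were Gm17455 (817 bp, in intron 28 of 68 of Cdh23), Ninj2 (622 bp), Bhlhe40 and Gm19557 (474 bp). Noncoding genes and 1 pseudogene were nearest to 26 intervals, with a median width of 314 bp, against 333 bp for the 304 at protein-coding genes. A repeat or low-complexity stretch was named at the centre of 21 (6.36%, 3.98 to 9.56), against 2.47% of all peaks for the same 6 repeat classes and 35 of 328 far intron peaks (10.7%, 7.55 to 14.5). The detailed annotation gives a single label per peak, so near CpG intron peaks, which carry the CpG label, cannot carry a repeat name. None of the 2571 promoter peaks carries one either, and both classes lower the share over all peaks. Of the 21, 6 were long terminal repeats, among them the centre of the Trabd interval.

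The distance limit cut through a continuous range. Just inside it were Sh3bp2 (249 bp wide, distance -4923 bp), Fam189b (157 bp, 4904 bp downstream) and Pag1 (1063 bp, 4860 bp downstream). Just outside were Sept9 (127 bp, distance -5093 bp), Bcl3 (313 bp, 5183 bp downstream) and Tmcc3 (297 bp, distance -5242 bp).

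Motifs were read in RefSeq start windows, 250 bases before to 50 after a gene's start, since no genome sequence of the introns was used here. The TSS of 247 of the 330 intervals matched such a window within 10 bp, giving 236 windows at 232 genes. Only 40 of these windows touched the interval, and 7 lay wholly under it, so the shares describe the starts of these genes and not the introns. CCACG occurred in 119 of 236 windows (50.4%, 95% interval 43.9 to 57.0), against 55.0% of 3353 windows at the starts of all peaks and 32.8% of all 32851 windows. ACGT occurred in 91 (38.6%, 32.3 to 45.1), against 49.8% and 30.9%. The E-box CACGTG, which contains ACGT, occurred in 25 (10.6%), against 13.2% and 7.15%. CCAAT, a site of the factor NF-Y, occurred in 77 (32.6%), against 40.1% and 37.4%. In the 40 windows that an interval touched, CCACG occurred in 21 (52.5%, 36.1 to 68.5), ACGT in 20 (50.0%, 33.8 to 66.2) and CCAAT in 16 (40.0%, 24.9 to 56.7), shares close to those at all peaks. ACGT, CCACG and the E-box contain CG, and the rule leaves out peaks labelled as CpG islands. The contrasts with all peaks for these motifs are therefore not independent of the rule. The windows also differed in base composition, and its part in these shares was not tested. The median ratio of observed to expected CG was 0.714 in the 236 windows, 0.824 at all peaks and 0.384 in all windows. The median GC content was 59.3% in the 236 windows, 61.7% at all peaks and 52.7% in all windows.

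The longer elements were rare, and all of them contain CG, so the same limit applies. The unfolded protein response element TGACGTGG, which contains ACGT, occurred in 1 of 236 windows (0.424%), against 1.70% at all peaks and 0.676% of all windows. That window belongs to Gm19897, named after its values were seen. The cyclic AMP response element TGACGTCA, with the same core, occurred in 3 (1.27%), against 4.77% and 1.79%, at Snhg15, Golph3 and Wsb1, of which Golph3 and Wsb1 were named after their values were seen. The ER stress response element, CCAAT and CCACG separated by 9 bases, occurred in 1 (0.424%), against 0.328% and 0.119%, at Alg12, whose interval lies away from the window. The element II occurred in 1 (0.424%), against 0.209% and 0.0365%, at Herpud1, in the run printed above. All motifs were searched on both strands, and the 236 windows are among those of all peaks and of all genes.

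**Figure D5:**
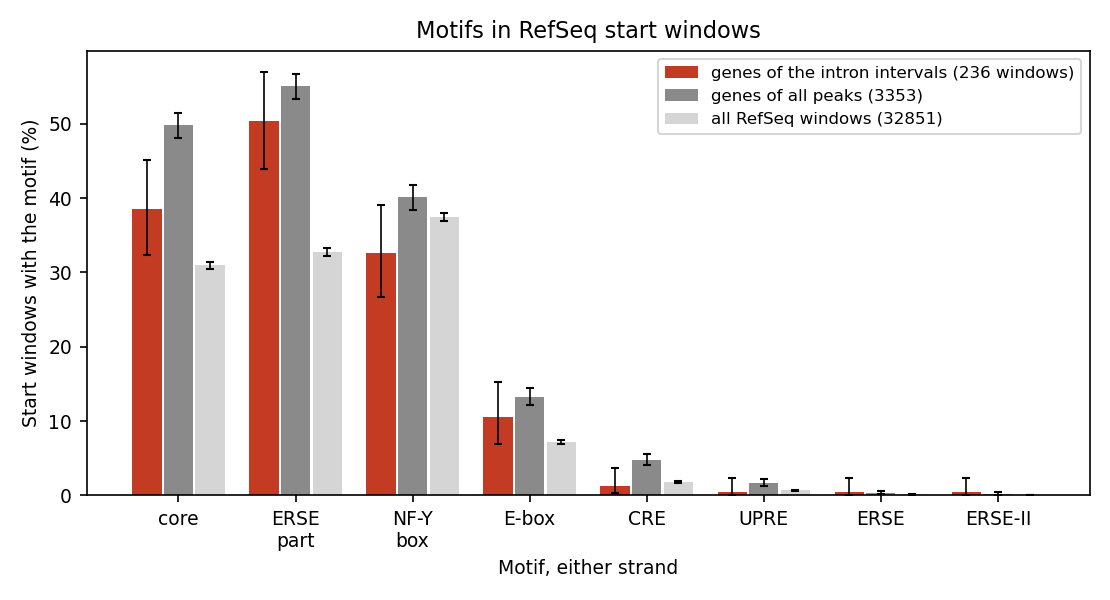
Share of RefSeq start windows in percent that hold each motif on either strand, with exact 95% intervals, for the genes of the 330 intervals (red), the genes of all peaks (dark grey) and all windows (light grey). The core is ACGT, the ERSE part is CCACG and the NF-Y box is CCAAT. For the core the shares are 38.6%, 49.8% and 30.9%.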

How the data were processed

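XBP1s ChIP-seq peaks of mouse NK cells were taken from 1 table, which per the file header is HOMER annotation of an interval file on mm10. Which calls it merges, with what thresholds or pooling, the sources used here do not state. HOMER (4.11.1 and 4.11), MACS2 (2.2.7.1), Bowtie2 (2.4.5), FastQC (0.11.9) and Trim Galore (0.6.7) are listed in the submitters' processing notes. The score that the authors deposited is 0 for every peak. Distances to the TSS and annotations, assigned by the interval's centre, are also the authors'. Width was end minus start plus 1, and a TSS counted as covered when it lay within the interval. Host genes and start windows came from RefSeq tables of GRCm38.p6. In that table, 1672 of 1672 overlapping windows of opposite strands were reverse complements. Shares and medians carry exact Clopper-Pearson or order-statistic 95% intervals. Named genes are the 20 widest, up to 5 per list by width, those at the distance limit, genes with 3 intervals, the 5 widest upstream, Xbp1 and Pim2, and exceptions are stated. 1 gene taken in by this rule is not reported here. The members and lists were chosen with earlier results of these data known. The design planned motif searches inside the intervals, but no genome was used here, so start windows were read instead. The alternatives were other distance limits, a minimum width, CpG intervals kept and TSS-covering intervals left out. Software was matplotlib 3.10.9, SciPy 1.17.1, NumPy 2.4.6 and pandas 2.3.3 under Python 3.11.15.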

Additional observations from a re-analysis of the deposited data

How the results depend on the processing

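No paired analysis was possible because the table has no column of any library, which also prevents leaving out a replicate. Of 35 values recomputed, 23 stayed within the 95% interval of the reported value or, for counts, within 1.5 times it, and 12 did not. With a limit of 2000 bp, the intron 1 share was 87.1%, the median distance 774 bp and the share with the host gene nearest 98.3%. With 10000 bp, the last share was 93.6%. With widths of at least 200 bp, the median width was 359 bp. With CpG intervals kept, there were 692 intervals, an intron 1 share of 89.2%, a median width of 373 bp, a median distance of 466 bp and a further start peak for 21.2%. Leaving out intervals over the TSS, chosen after the data were seen, gave a median width of 308.5 bp and a median distance of 1118 bp. The settings select by distance, width, class or covering, so shifts in those same quantities follow at least in part from the setting. The cause of the other shifts was not tested. The planned motif search within intervals was not run without a genome sequence, and the search in start windows was added after the data were seen. Depth could not be assessed, since the table holds no counts.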
